A study of Homo sapiens with 8 samples.

Results

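Sprouty and SPRED proteins are feedback inhibitors of the RAS to ERK signalling pathway. The genes described here are SPRY1, SPRY2 and SPRY4 of the Sprouty family and SPRED1, SPRED2 and SPRED3 of the SPRED family. They were measured in LM2 breast cancer cells that received Ponatinib or carried shRNA against ABL1, ABL2 or both. Ponatinib blocks ABL and several further tyrosine kinases. The 6 genes were found by their symbols among the 58688 genes counted in every sample, and all 6 were measured in all 8 samples. All 6 mRNAs were lower after Ponatinib, SPRY4 by 11.0-fold, whereas SPRY4 in the 3 ABL knockdown libraries was at 2.36 to 2.73 times its level in the Scrambled shRNA library.

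Growth factor receptors with tyrosine kinase activity switch on RAS, which activates the RAF, MEK and ERK kinases in turn, and ERK then induces genes whose products dampen the same pathway. Sprouty proteins are among these induced inhibitors and act between the receptor and RAF, through partners such as the adaptor GRB2 and the ubiquitin ligase CBL. SPRED proteins carry a related cysteine-rich domain and bring neurofibromin (NF1), a GTPase activating protein that switches RAS off, to the membrane.

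LM2 is a lung-metastatic derivative of MDA-MB-231, an established human triple-negative breast cancer cell line. The LM2 cells were grown in DMEM with 10% serum. In one experiment, LM2 cells received DMSO, the solvent, or 1 µM Ponatinib, a drug that blocks ABL and several further tyrosine kinases, for 6 h, with 2 samples each. In the other, LM2 lines that had taken up a lentiviral vector carried Scrambled shRNA as the control, ABL1 shRNA, ABL2 shRNA or ABL1/ABL2 shRNA (both genes), with 1 library each. The shRNA lines, made with 1 hairpin per gene, were infected in the presence of Polybrene and selected with puromycin, and DMSO and Ponatinib cells carried no shRNA, so values were compared within each experiment only. No source used here says that the samples labelled as repeats came from separate cultures, so the p-values measure only the spread between these samples, which may be technical.

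Counts on genes summed to 7568934 to 11509379 per sample in the DMSO and Ponatinib experiment and 11610339 to 13010896 in the shRNA libraries, so that 3 counts, the detection floor, equalled 0.23 to 0.396 CPM (counts scaled so that all libraries have the same total). Text inside the Scrambled shRNA and ABL1 shRNA count tables names each other's condition, and both were used as labelled. In normalised CPM, ABL1 was at 189.8 with Scrambled shRNA and at 72.7, 202 and 109 with ABL1 shRNA, ABL2 shRNA and both, so the library labelled ABL1 shRNA had the least ABL1. ABL2 was at 236, 212, 93.5 and 148 CPM in the same order. The Scrambled shRNA library stood apart from the rest: 439 of 16329 genes were over 2-fold from all 3 other shRNA libraries, against 183 for ABL1 shRNA, 240 for ABL2 shRNA and 109 for both. Of the 3 markers of the triple-negative label, the progesterone receptor gene PGR had 0 counts throughout and the oestrogen receptor gene ESR1 had 3 to 11 counts, but ERBB2, the HER2 gene, was at 53.6 to 66.8 CPM in all samples and rose with Ponatinib by 0.22 on the log2 scale (edgeR adjusted p = 0.0381). The summed mesenchymal markers were at 3568 to 6430 CPM. In bulk RNA of this kind, fewer expressing cells and less mRNA per cell cannot be told apart.

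The promoters of the Sprouty genes are shown because ERK acts on genes through transcription factors of the ETS, AP-1, EGR and serum response factor families, and these are the members with the clearest change or the most matches. RefSeq (GRCh38.p14) gave 11 windows for the 6 genes, each the 250 bases upstream of a transcription start, and 5 motifs were searched on both strands. They were the ETS core CCGGAA, AP-1 TGANTCA, the cAMP response element TGACGTCA, EGR GCGNGGGCG and the CArG box of serum response factor. Of 35116 such windows of all genes, 14.5% held the ETS core, 6.57% AP-1, 1.65% the cAMP response element, 8.41% EGR and 1.16% a CArG box. Of the bases in the printed windows of SPRY4, SPRY2 and SPRY1, 65.6%, 70.4% and 68% were G or C. The median of all windows was 58%, so these shares are not those of windows of like composition. The sequences below run 5′ to 3′ on the gene's strand up to the base before the start, and capitals mark the matches.
SPRY4, chr5:142324248-142324497, minus strand: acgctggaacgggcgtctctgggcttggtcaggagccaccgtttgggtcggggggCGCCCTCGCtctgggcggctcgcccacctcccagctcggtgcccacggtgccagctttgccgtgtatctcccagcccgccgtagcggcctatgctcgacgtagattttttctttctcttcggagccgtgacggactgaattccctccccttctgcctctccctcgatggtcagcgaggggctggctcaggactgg
SPRY2, chr13:80341127-80341376, minus strand: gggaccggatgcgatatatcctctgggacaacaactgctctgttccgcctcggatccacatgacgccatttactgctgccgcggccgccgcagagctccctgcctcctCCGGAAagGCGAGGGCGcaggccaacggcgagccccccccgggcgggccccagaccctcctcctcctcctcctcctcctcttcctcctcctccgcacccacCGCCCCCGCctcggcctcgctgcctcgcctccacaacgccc
SPRY1, chr4:123398136-123398385, plus strand: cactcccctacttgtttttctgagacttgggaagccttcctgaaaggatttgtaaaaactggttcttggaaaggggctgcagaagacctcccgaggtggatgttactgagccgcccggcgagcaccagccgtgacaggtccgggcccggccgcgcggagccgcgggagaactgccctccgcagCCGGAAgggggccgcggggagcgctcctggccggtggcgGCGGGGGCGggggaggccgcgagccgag
In the SPRY4 window, the only match was EGR at -195 to -187, counted back from the start, and this window lies inside the annotated gene, before a start downstream of the outermost one. The SPRY2 window held the ETS core at -142 to -137 and EGR at -134 to -126 and at -41 to -33. SPRY1 had the ETS core at -67 to -62 and EGR at -28 to -20 in a window placed in the same way. Of the other windows, one of SPRED3 held AP-1 at -60 to -54, and the remaining 7 held none of the 5 motifs. They were those of SPRED1 and SPRED2 and the further windows of SPRED3, SPRY1 and SPRY2. Only Sprouty windows with a match are printed above. A match is a string of letters, not a shown binding site.

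The first question was how the 6 genes responded to Ponatinib. All 6 fell in the edgeR quasi-likelihood test across 16031 genes (adjusted p under 0.05), while 15.7% of all genes tested fell and 15% rose. SPRED3 had at least 10 counts only in DMSO, where it was higher, and passed the filter on low counts through those samples. Its fall therefore adds no support to the count of 6. All 6 also had both Ponatinib samples below both DMSO samples, as did 32.8% of all genes tested. The median log2 fold change of the 6 was -0.88, against -0.0047 over all genes tested. By size, SPRY4 fell most and SPRED3 next, SPRY1 and SPRY2 fell to between 52.7% and 56.2% of DMSO, and SPRED1 and SPRED2 fell to 71.2% and 71.6% of it.

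SPRY4, on chromosome 5 (142310427 to 142326455, minus strand; GENCODE, GRCh38, as for all gene positions here), encodes a Sprouty protein that blocks RAS and RAF activation downstream of receptors. Its level was 289.2 and 302.5 normalised CPM in the DMSO samples and 27.4 and 26.0 in the Ponatinib samples. The samples within each group lay close together, and the groups were far apart. The mean went from 296 ± 9.41 CPM to 26.7 ± 1.02 (SD, n = 2 each), 9.05% of DMSO. The log2 fold change was -3.47 (SE 0.076, 95% interval -3.63 to -3.30, edgeR adjusted p = 5.84e-13), the 5th lowest of the 16031 genes. SPRY4 overlaps 3 genes on the opposite strand, SPRY4-AS1 among them, and reads of these cannot be told apart from SPRY4 reads if strand was not used. Their own counts were 1 to 37 per library.

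SPRY2, on chromosome 13 (80335976 to 80341126, minus strand), encodes the Sprouty protein best known for binding CBL and GRB2. It was at 82.3 and 79.6 CPM in DMSO and 42.5 and 43.0 CPM with Ponatinib. The groups did not overlap, and neither pair differed by more than 3 CPM. Its log2 fold change was -0.92 (SE 0.075, 95% interval -1.08 to -0.76, edgeR adjusted p = 2.69e-07). SPRY1, on chromosome 4 (123396795 to 123403760, plus strand), encodes a Sprouty protein known for limiting growth factor signalling in kidney development. It was at 53.2 and 58.1 CPM in DMSO and 30.6 and 31.9 CPM with Ponatinib, again without overlap. Its log2 fold change was -0.83 (SE 0.088, 95% interval -1.02 to -0.64, edgeR adjusted p = 4.22e-06). The intervals of SPRY1 and SPRY2 overlap each other and lie apart from that of SPRY4.

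SPRED1, on chromosome 15 (38252836 to 38357249, plus strand), encodes the NF1 partner whose loss causes Legius syndrome. Its level was 79.3 and 75.5 CPM in DMSO and 52.6 and 58.0 CPM with Ponatinib. The log2 fold change was -0.49 (SE 0.077, 95% interval -0.65 to -0.33, edgeR adjusted p = 0.000189). SPRED2, its close relative on chromosome 2 (65310851 to 65432637, minus strand), had an interval that overlapped that of SPRED1. It was at 63.9 and 68.9 CPM in DMSO and 44.6 and 51.0 CPM with Ponatinib, with a log2 fold change of -0.48 (SE 0.085, 95% interval -0.66 to -0.30, edgeR adjusted p = 0.000518). For both genes the Ponatinib samples lay below the DMSO samples, and Ponatinib replicate 2 was the higher of its pair.

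SPRED3, on chromosome 19 (38388421 to 38399587, plus strand), encodes a SPRED protein that lacks the functional KIT-binding domain of the other two, and it was the scarcest of the 6. It had 53 and 33 counts in DMSO and 8 and 8 with Ponatinib, or 4.68 and 3.33 CPM against 0.759 and 1.04 CPM. The log2 fold change was -2.19 (SE 0.35, 95% interval -2.93 to -1.44, edgeR adjusted p = 0.000226). The DMSO samples differed by 0.49 and the Ponatinib samples by 0.45 on the log2 scale, more than for any other of the 6 genes. SPRED3 and SPRY4 were the only members past 2-fold with an unadjusted p under 0.05, a rule that 2.29% of all genes tested met downwards and 3.19% upwards.

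**Figure D1:**
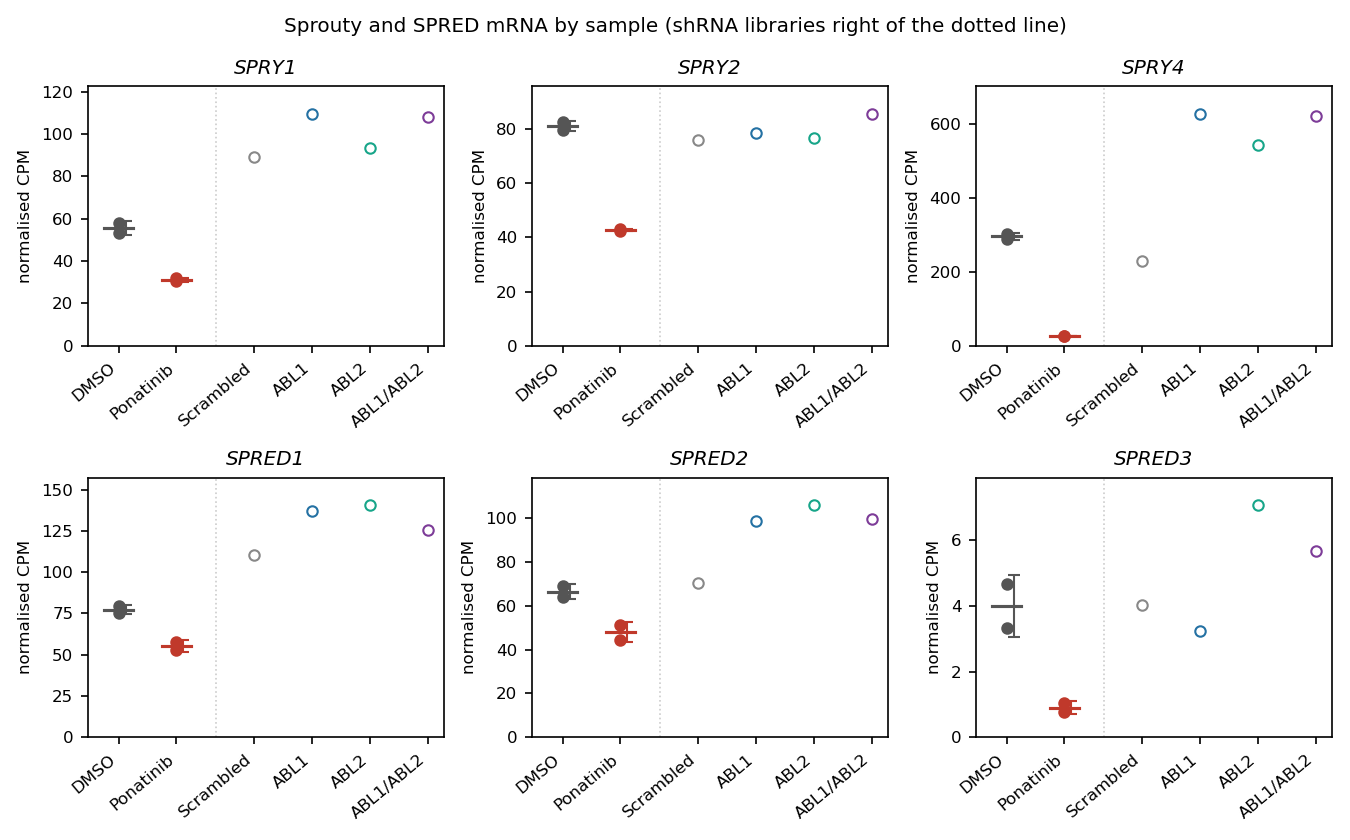
Normalised CPM (y axes, starting at 0) of each gene in every sample, with DMSO and Ponatinib left of the dotted line (points are samples, bars the mean and SD, n = 2) and the 4 shRNA libraries right of it (open points, 1 library each). Both Ponatinib points lie below both DMSO points for all 6 genes, and SPRY4 is at 541 to 627 CPM in the knockdown libraries against 229.5 CPM with Scrambled shRNA.

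To compare the genes with each other, CPM was divided by the length of each gene's exons in kilobases, which assumes that all exons are used. On this scale SPRY4 was the most abundant of the 6 in DMSO, with 44.1 and 46.2 CPM per kilobase, followed by SPRY2 with 25.6 and 24.8 and SPRY1 with 13.4 and 14.7. The SPRED genes came next, SPRED2 at 11.6 and 12.5, SPRED1 at 10.2 and 9.74 and SPRED3 at 0.798 and 0.568 CPM per kilobase. No neighbours in this order overlapped. With Ponatinib, SPRY2 stood at the top with 13.2 and 13.4 CPM per kilobase, and SPRY4 was 5th with 4.18 and 3.96. SPRED2 at 8.09 and 9.27 and SPRY1 at 7.73 and 8.06 CPM per kilobase lay between them and were closer to each other than the SPRED2 samples were.

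SPRY4 thus made up 53.1% and 53.9% of the summed Sprouty level in DMSO and 16.6% and 15.6% with Ponatinib, while the share of SPRY2 went from 30.8% and 28.9% to 52.6% and 52.7%. The 6 genes together summed to 106 and 108 CPM per kilobase in DMSO and 40.1 and 42.3 with Ponatinib. The 3 SPRED genes alone summed to 22.6 and 22.8 in DMSO and 15.01 and 16.9 with Ponatinib. Most of the drop in the sum was therefore in Sprouty mRNA, and most of that in SPRY4.

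**Figure D2:**
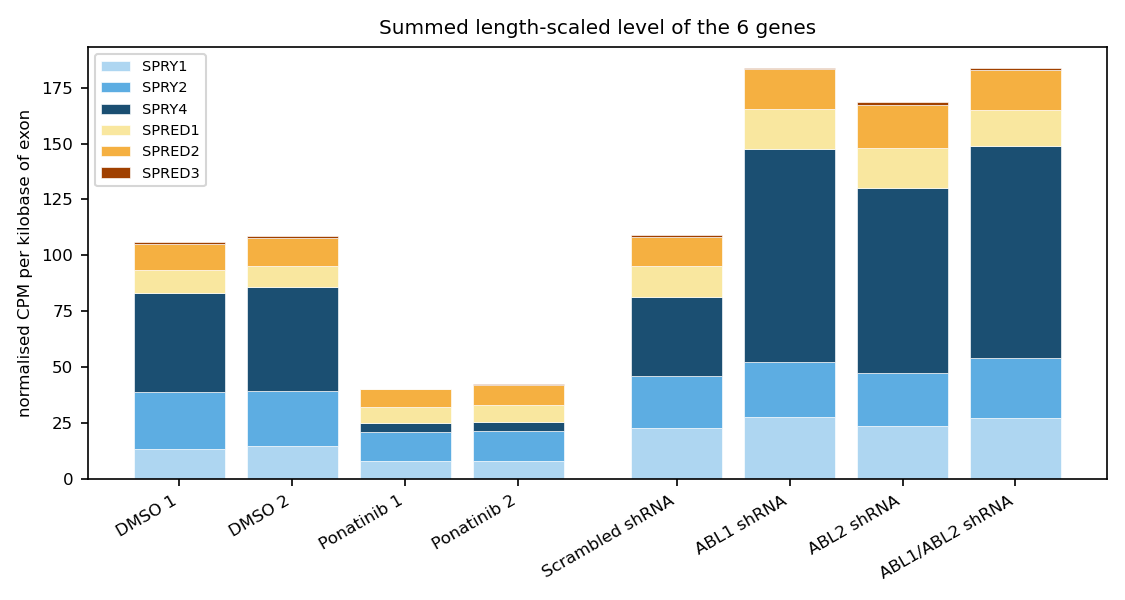
Normalised CPM per kilobase of exon (y axis, from 0) summed over the 6 genes in each of the 8 samples, with each gene as a coloured segment. The SPRY4 segment makes up 41.7% and 42.6% of the DMSO bars, 10.4% and 9.36% of the Ponatinib bars, 32.2% of the Scrambled shRNA bar and 49.0% to 52.0% of the knockdown bars.

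The rest of the pathway was read from 7 lists of other genes, 94 in all, of which 84 had enough counts to be tested. After Ponatinib 33 fell and 19 rose, with a median log2 fold change of -0.07. The rises numbered 10 without DMSO replicate 1 and 12 without DMSO replicate 2. Among 11 receptor tyrosine kinases tested, 4 fell and 5 rose, with a median of 0.22, and 3 rose without DMSO replicate 1, DMSO replicate 2 or Ponatinib replicate 2. The largest changes there were rises, of PDGFRB, a PDGF receptor (log2 1.55, edgeR adjusted p = 0.000465), ERBB3, a neuregulin receptor (1.45, adjusted p = 3.15e-05), and FGFR3, an FGF receptor (0.88, adjusted p = 0.0190). Of 11 adaptors and RAS exchange factors 2 fell and 3 rose, the exchange factor SOS2 by 0.70 (edgeR adjusted p = 1.36e-06), the docking protein FRS3 by 0.60 (adjusted p = 0.0244) and the docking protein GAB1 by 0.40 (adjusted p = 0.0185) on the log2 scale. Without DMSO replicate 1, 1 of these 11 fell and 1 rose, and 1 fell without Ponatinib replicate 1 but 4 without Ponatinib replicate 2. These upstream genes moved in both directions, unlike the 6 inhibitors.

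In the cascade from RAS to ERK, 2 of 11 genes fell and 3 rose, with 1 fall without DMSO replicate 2 and 1 rise without DMSO replicate 1. KSR1, a scaffold of the cascade, rose by 1.40 (edgeR adjusted p = 2.35e-05), and HRAS fell by 0.41 (adjusted p = 0.000478) on the log2 scale. Of 7 RAS GTPase activating proteins tested, the class to which NF1 belongs, 4 fell and 1 rose, with a median of -0.38. The call of that rise was lost without DMSO replicate 1, and 3 rose without Ponatinib replicate 1. RASA3 (-0.86, edgeR adjusted p = 3.02e-07) and RASA2 (-0.59, adjusted p = 0.00120) had the largest falls. NF1 itself did not pass the test and was at 43.3 to 43.8 CPM in DMSO and 47.1 to 51.5 CPM with Ponatinib. Among 16 proteins that bind or modify Sprouty and SPRED, 1 fell and 4 rose, led by the kinase MKNK2 (1.19, adjusted p = 9.96e-09), the ubiquitin ligase CBLB (1.06, adjusted p = 8.39e-06) and the ubiquitin ligase SIAH1 (0.58, adjusted p = 0.00596), all from edgeR. That fall was not called without either DMSO replicate, 3 fell without Ponatinib replicate 2, and 2 rose without DMSO replicate 1.

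In the list of other ERK feedback inhibitors, mostly dual-specificity phosphatases, 5 of 13 fell and 3 rose (1 without DMSO replicate 2). Its median log2 fold change was -0.0002. The falls were those of DUSP5, DUSP6, RASSF1, DUSP7 (log2 -1.15, edgeR adjusted p = 1.37e-07) and DUSP4 (-1.04, adjusted p = 5.36e-09). The rises were those of DUSP8, DUSP10 and ERRFI1. The list also holds phosphatases of stress kinases, such as DUSP8, so its counts do not describe the ERK phosphatases alone. DUSP5 and DUSP6, phosphatases that act on ERK, fell by 3.08 (edgeR adjusted p = 9.39e-13) and 2.56 (adjusted p = 9.09e-12) on the log2 scale, and both intervals lay above that of SPRY4. DUSP8, a phosphatase of stress kinases, was called as rising by 1.44 (edgeR adjusted p = 0.0262). It had only 14 and 3 counts in DMSO and 21 and 19 with Ponatinib. Its DMSO samples differed by 2.03 on the log2 scale, more than the change itself. All 15 genes of the ERK target list fell, with a median of -1.33. Among them were MAFF (-2.81, edgeR adjusted p = 8.14e-11) and the AP-1 genes FOS (-2.75, adjusted p = 4.77e-05) and FOSL1 (-2.35, adjusted p = 1.39e-11). The lists were chosen with earlier results of these data known and are no independent evidence of a direction.

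**Figure D3:**
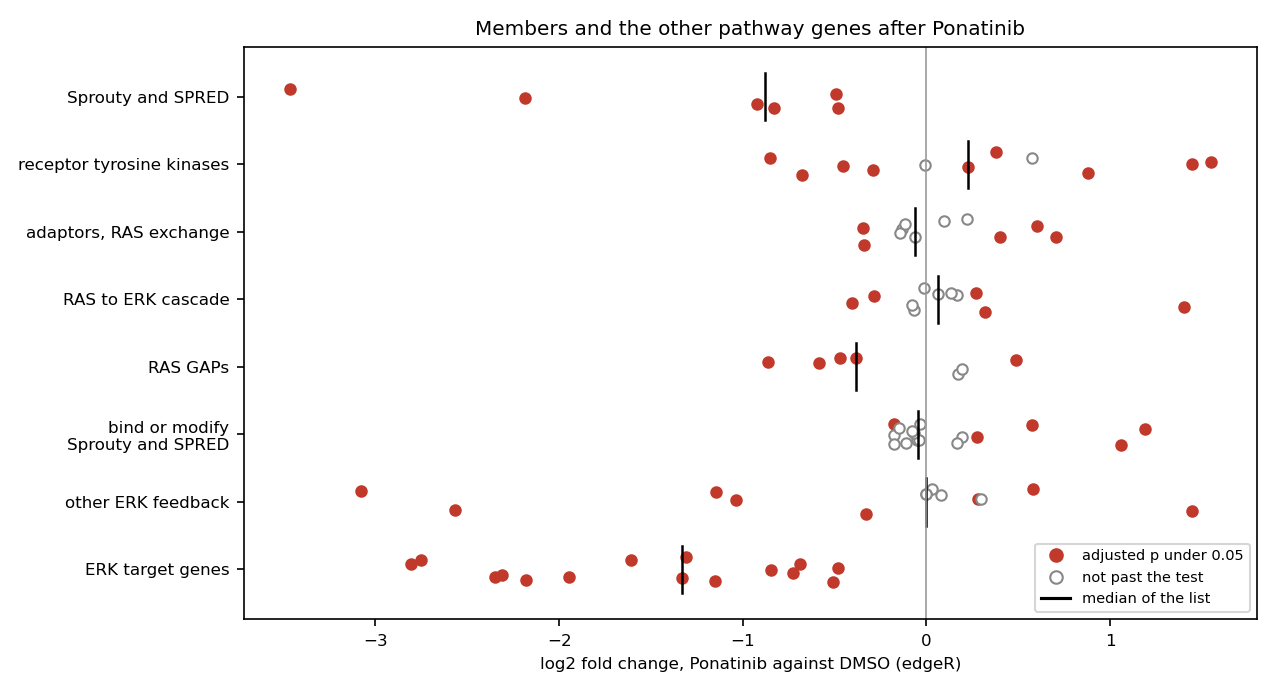
Log2 fold change of Ponatinib against DMSO from edgeR (x axis) for each tested gene of the Sprouty and SPRED group and of 7 pathway lists (rows), with filled points at an adjusted p under 0.05, open points otherwise and a bar at each list's median. The Sprouty and SPRED genes (median -0.88) and the ERK target genes (median -1.33) lie wholly left of 0, and the other lists reach both sides of it.

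The second question was what the knockdown of ABL1, ABL2 or both did to the same 6 genes. Each shRNA line is 1 library, so these differences have no replicate check and were not tested, and the intervals below are exact 95% intervals for counting error only. Over 2-fold above Scrambled shRNA lay 1 of the 6 genes, SPRY4, with each shRNA, as did 4.86%, 4.6% and 4.47% of genes with ABL1 shRNA, ABL2 shRNA and both. SPRY4 was over 2-fold higher in all 3 at once, which 1.67% of 16329 genes were. None of the 6 was over 2-fold lower, where 4.04%, 3.08% and 3.27% of genes lay. By any amount, 5 of 6 (all but SPRED3) were above Scrambled shRNA in all 3 libraries, against 29.6% of genes, and none was below it in all 3, where 29.5% of genes lay. The median log2 ratios of the 6 were 0.30, 0.47 and 0.38 with ABL1 shRNA, ABL2 shRNA and both, while the medians of all genes were within 0.01 of 0.

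SPRY4 had 2611 counts with Scrambled shRNA and 8133, 6815 and 7560 with ABL1 shRNA, ABL2 shRNA and both, or 229.5, 627, 541 and 622 CPM. All 3 knockdown libraries were high and near one another. The log2 ratios to Scrambled shRNA were 1.45 (1.385 to 1.513), 1.24 (1.172 to 1.303) and 1.44 (1.373 to 1.502). Between the knockdown libraries SPRY4 differed by 0.01 (ABL1 over both, -0.03 to 0.06) to 0.21 (ABL1 over ABL2, 0.16 to 0.26) on the log2 scale. The double knockdown library was not above that of ABL1 shRNA alone, and its targets were less reduced, ABL1 by a log2 ratio of -0.80 and ABL2 by -0.68, than ABL1 with its own shRNA (-1.38) or ABL2 with its own (-1.34).

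For the other Sprouty genes the differences were small. SPRY1 was at 89.2 CPM with Scrambled shRNA and 109.6, 93.3 and 108 CPM with ABL1 shRNA, ABL2 shRNA and both, with log2 ratios of 0.30 (0.18 to 0.41), 0.06 (-0.06 to 0.19) and 0.28 (0.16 to 0.40). SPRY2 was at 75.9 CPM and then 78.5, 76.7 and 85.5 CPM. The counting intervals of SPRY2 with ABL1 shRNA (-0.08 to 0.18) and ABL2 shRNA (-0.12 to 0.15) included 0, and that with both (0.04 to 0.30) did not.

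The SPRED genes were also above the control, save in 1 library. SPRED2 was at 70.4 CPM with Scrambled shRNA and 98.5, 106 and 99.5 CPM with ABL1 shRNA, ABL2 shRNA and both, or log2 ratios of 0.48 (0.36 to 0.61), 0.59 (0.46 to 0.71) and 0.50 (0.37 to 0.63). SPRED1 was at 110.2 CPM and then 137, 140.5 and 125.5 CPM, or 0.31 (0.21 to 0.42), 0.35 (0.24 to 0.46) and 0.19 (0.08 to 0.30) on the log2 scale. All 6 of these counting intervals lay above 0, whereas both genes fell after Ponatinib. SPRED3 had only 46, 42, 89 and 69 counts, so its log2 ratios of -0.32 (-0.96 to 0.31), 0.81 (0.28 to 1.35) and 0.49 (-0.07 to 1.06) were imprecise and only that of ABL2 shRNA had an interval above 0.

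**Figure D4:**
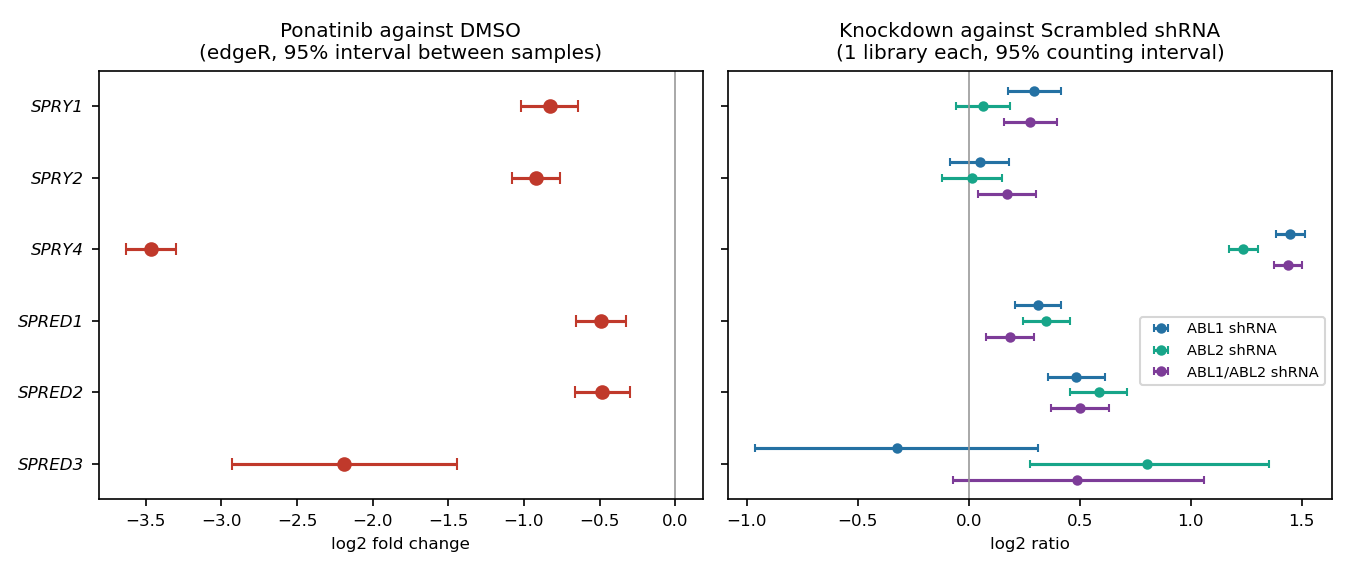
Left, log2 fold change of the 6 genes after Ponatinib (points) with 95% intervals from edgeR, n = 2 against 2. Right, log2 ratio of each knockdown library to Scrambled shRNA with 95% counting intervals (1 library each), on its own x axis scale: SPRY4 lies at -3.47 on the left and at 1.24 to 1.45 on the right.

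All 3 ratios of a gene share the Scrambled shRNA library, the one that stood apart, so a low value there raises all of them. Endothelial and leukocyte markers also differed between that library and the rest. The summed endothelial markers were at 21.7 CPM with Scrambled shRNA and 32.0 to 40.3 CPM in the knockdown libraries, nearly all of it PECAM1, with CDH5 at 3 counts or fewer. The summed leukocyte markers were at 3.08 CPM and then 5.64 to 7.24 CPM, nearly all CD14, while the leukocyte-defining PTPRC and CD3E were at 3 counts or fewer. Luminal and epithelial markers did not set the Scrambled shRNA library apart. They summed to 722 CPM with Scrambled shRNA and to 1133, 452 and 918 CPM with ABL1 shRNA, ABL2 shRNA and both. Mesenchymal markers summed to 4587 CPM and then 4479, 3568 and 4256 CPM, with ABL2 shRNA the library farthest from the others. The part of these differences in the Sprouty and SPRED values was not tested. In the DMSO and Ponatinib samples the endothelial sum was 2.47 to 4.34 CPM and the leukocyte sum 0.606 to 1.42 CPM.

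Per kilobase of exon, SPRY4 stood at 35.02 CPM with Scrambled shRNA and at 95.6, 82.6 and 94.9 CPM with ABL1 shRNA, ABL2 shRNA and both. Its share of the Sprouty sum was 43.2% and then 64.7%, 63.5% and 63.8%. The sum of all 6 genes was 109 CPM per kilobase with Scrambled shRNA and 184, 168 and 184 in the knockdown libraries. SPRY4 was the most abundant of the 6 in every shRNA library, as in DMSO.

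Of the 84 other pathway genes compared, 3 were over 2-fold higher and 3 lower with ABL1 shRNA, 1 and 3 with ABL2 shRNA and 1 and 3 with both. Of all genes, 4.86% and 4.04%, 4.6% and 3.08%, and 4.47% and 3.27% were, in the same order. In all 3 libraries 24 lay above Scrambled shRNA by any amount and 28 below, as did 29.6% and 29.5% of all genes. CBLB was lower by log2 ratios of -1.18, -0.63 and -1.25, and DUSP8 by -3.02, -1.90 and -2.01 from 64 counts. LRIG1, an inhibitor of receptors of the EGF family, was at 34.4 CPM with Scrambled shRNA and at 21.9, 12.1 and 15.5 CPM in the same order. The ERK feedback phosphatases DUSP5 and DUSP6 were above Scrambled shRNA, at 0.48, 0.97 and 0.56 and at 0.58, 0.76 and 0.52. Of the 15 ERK target genes 10 were above it in all 3 libraries, and 2 were below.

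Set side by side, 5 of the 6 members fell with Ponatinib and lay above Scrambled shRNA in all 3 knockdowns, as did 5% of the 14328 genes measured in both experiments. The experiments also differed in which genes had counts, as 68 genes with 100 or more counts in each DMSO and Ponatinib sample were at 0 counts in each shRNA library, none of them a member or a gene of the lists, and the part of the way reads were counted was not tested. The exception was SPRED3, below Scrambled shRNA with ABL1 shRNA. The experiments share no sample, and the time of exposure (6 h against stable lines) and the number of kinases hit differ between them. ABL2 mRNA also fell with Ponatinib (log2 -1.02, edgeR adjusted p = 8.56e-08), while ABL1 mRNA rose by 0.19 (adjusted p = 0.0287).

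**Figure D5:**
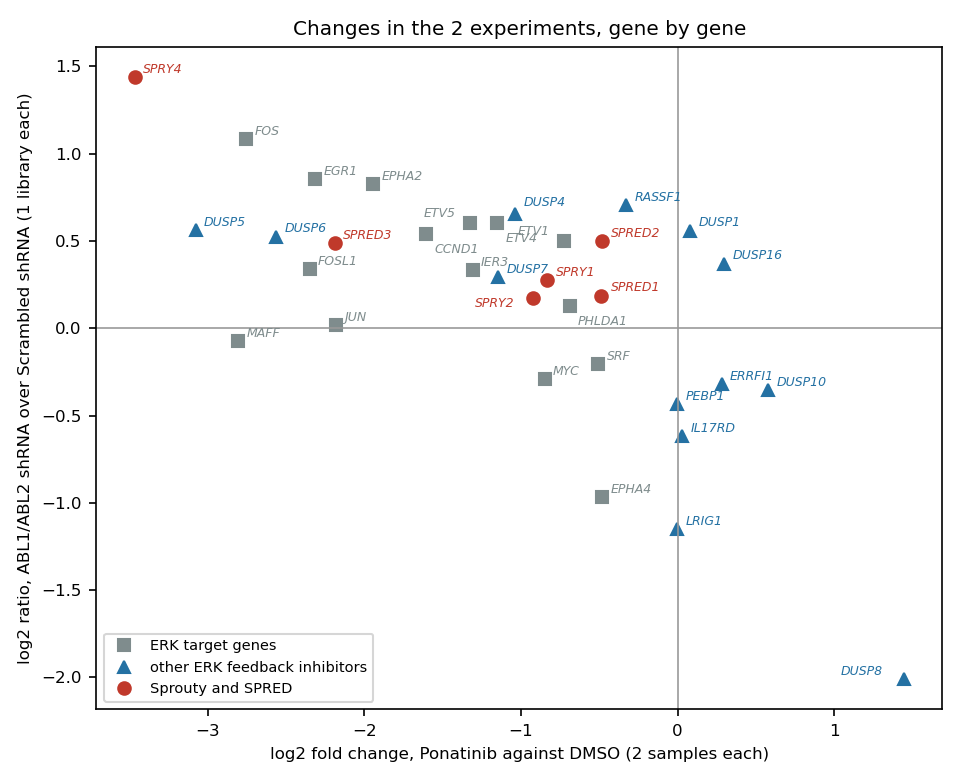
Log2 fold change after Ponatinib (x axis, 2 samples a group) against the log2 ratio of the ABL1/ABL2 shRNA library to Scrambled shRNA (y axis, 1 library each) for the Sprouty and SPRED genes (circles), other ERK feedback inhibitors (triangles) and ERK target genes (squares). All 6 circles lie in the upper left, with SPRY4 farthest out at -3.47 and 1.44, and DUSP8 lies at the opposite corner.

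The genes whose pattern over the 8 samples was most like each member were sought among 13952 genes, with each gene centred within its experiment and likeness measured as the root mean square difference of log2 CPM. For SPRY4 they were CSF3, a granulocyte growth factor (0.27), and the phosphatase gene DUSP5 (0.32). CSF3 fell by 3.44 on the log2 scale after Ponatinib (edgeR adjusted p = 9.62e-12) and had log2 ratios of 0.87, 0.98 and 0.49 with ABL1 shRNA, ABL2 shRNA and both, so it matched SPRY4 better after Ponatinib than in the knockdowns. SPRY1 was nearest to SOX9, a transcription factor (0.053), and STAMBPL1 (0.057), and SPRY2 to TGM2, a transglutaminase (0.042), and OTUB2 (0.047). SPRED1 was nearest to CILK1 (0.045) and NT5E, the ectonucleotidase CD73 (0.049), and SPRED2 to NUTM2E and the kinase HIPK2 (0.050 each). NUTM2E did not pass the test after Ponatinib (log2 -0.40, edgeR adjusted p = 0.313). SPRED3 was nearest to SPHK1, a sphingosine kinase (0.23), and ARHGAP22 (0.25). No member was among the 2 genes nearest to another member.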

How the data were processed

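RNA of LM2 cells was sequenced by the authors in 8 samples (library kit NEBNext Ultra, Illumina HiSeq). Per the labels and the study's methods, reads were checked with FastQC, mapped with TopHat to hg38 and counted per gene with HTSeq 0.6.0. The values the authors deposited are raw counts per gene, not normalised. The TopHat version, annotation release and strand setting are not given in the sources used here. The shRNA tables hold summary rows that name no gene (15.7% to 16.0% of their reads), which were left out.

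The test was edgeR 4.0.16, run in R 4.3.3 (TMM normalisation, filterByExpr, quasi-likelihood test, prior count 0.125, Benjamini-Hochberg over all 16031 genes tested), in the 4 DMSO and Ponatinib samples only. All 6 members passed the filter, SPRED3 through its DMSO samples. Gene IDs were matched to symbols and exon lengths for 54836 of 58688 genes. For the knockdowns, CPM normalised by TMM over the 4 shRNA libraries gave ratios with exact (Clopper-Pearson) 95% intervals, among genes with at least 10 counts in 1 of the libraries compared. Intervals and floors cover counting error only, since reads carried no molecular identifiers.

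The members, lists and tests were chosen with earlier results of these data known. Besides the members, ABL1, ABL2 and SPRY3, the genes named are, from each list, up to 3 called genes with the largest change after Ponatinib, genes past 2-fold in at least 2 knockdowns in 1 direction, and the 2 genes of nearest pattern per member. NF1, the markers of other cell types and the further called genes of the list of other ERK feedback inhibitors were named outside this rule. Some genes that the rule selects are not reported here. The DMSO and Ponatinib pairs differed by more than sampling noise (chi-square per degree of freedom 1.44 and 3.12), so each sample counted once. Alternatives were DESeq2 (1.42.0) size factors and Wald test, other filters, the fold rule, the replicate block, a fit of all 8 samples, total-count CPM and leaving out each sample. The scripts were tested on simulated data.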

Additional observations from a re-analysis of the deposited data

How the results depend on the processing

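With every alternative that tested it, each of the 6 members fell after Ponatinib. SPRED3 could not be tested where 10 counts were required in every sample. As it passed the filter on low counts through its DMSO samples, its calls add no support to the counts of 6 members given here. Leaving out 1 sample at a time kept 6 of 6 members called and gave log2 fold changes of -0.90 to -0.77 for SPRY1, -0.94 to -0.90 for SPRY2, -3.50 to -3.43 for SPRY4, -0.56 to -0.41 for SPRED1, -0.58 to -0.37 for SPRED2 and -2.40 to -1.91 for SPRED3. The rule of a fold over 2 with an unadjusted p under 0.05 left 2 members, and 14 falls and 6 rises among the other pathway genes (33 and 19 otherwise), since it asks for a larger change. The rises numbered 9 with DESeq2's Wald test and 10 to 23 when 1 sample was left out, the lowest without DMSO replicate 1 and 12 without DMSO replicate 2. Across all genes, DESeq2's Wald test called 1481 falls and 1328 rises, and leaving out DMSO replicate 1 or 2 gave 1445 and 1355 or 1682 and 1560, against 2511 and 2406.

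Samples with the same repeat number showed no shared deviation from their group means (r = -0.02 over 9421 genes, which are no independent replicates). With 2 samples a group, this cannot exclude that they were handled as pairs. With the number as a replicate block 6 members fell, and 2561 of all genes fell and 2423 rose.

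In the knockdowns, lowering the fold to 1.5 gave 3 members higher with ABL2 shRNA in place of 1. Those added were SPRED2, at 1.501-fold and so at the cut, and SPRED3, with 89 counts against 46 with Scrambled shRNA. No share of all genes past 1.5-fold is given here, so the counts at this fold are not read as results. Among the other pathway genes the lower fold gave 10 higher and 15 lower with ABL1 shRNA, 8 and 11 with ABL2 shRNA and 11 and 10 with both. With CPM of the total count, 2 of these were over 2-fold higher with ABL2 shRNA. The log2 ratios of the members moved by at most 0.05 with other scalings. Depth limits SPRED3, and the knockdowns have no replicates.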

Other observations

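SPRY3, the remaining Sprouty gene, was counted at 2 to 9 reads in the DMSO and Ponatinib samples, too few to be tested, and at 7 to 15 reads in the shRNA libraries. It had 8 counts in the Scrambled shRNA library and 7, 12 and 15 in those of ABL1 shRNA, ABL2 shRNA and ABL1/ABL2 shRNA. The other gene groups are given as values above, and no further pattern is reported.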
